A study of Homo sapiens with 29 samples.

Results

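Cultured airway cells exposed to 9 doses of a carcinogen were examined for 9 genes of transforming growth factor beta (TGF-beta) and activin signalling, namely the ligand genes TGFB1, TGFB2 and INHBA, the receptor genes TGFBR1 and TGFBR2, and the target genes TGFBI, PMEPA1, SKIL and TGIF1. The genes were chosen by symbol with earlier results of these data known, so counts of members set beside shares of all probe sets are descriptions. Every probe set that the array's annotation gives to 1 of these symbols was taken, 27 of the 54675 probe sets on the array. Each of the 27 carried a single symbol. Of these, 15 lay at or above the level minimum for testing, an intensity of 37.4 averaged over all arrays on the log2 scale, and these 15 covered all 9 genes. The other 12 were dimmer and are described separately. All arrays came from BEAS-2B, an immortalised line of human bronchial epithelial cells, grown in LHC-9 medium and exposed for 24 h. The exposed cultures received N-OH-PhIP, the N-hydroxylated metabolite of the cooked-meat and tobacco-smoke carcinogen PhIP, at 0.1, 0.5, 1, 5, 10, 50, 100, 500 or 1000 nM. The reference cultures received the solvent DMSO alone, and DMSO stood at 1% in every culture, exposed or not. There were 3 arrays, 1 per culture, at each dose and in DMSO, except 2 arrays at 0.5 nM, which makes 29 arrays in 10 groups. The stated aim was to find the dose below which no transcriptional effect is seen. A single cell line was used, so the results describe that line alone.

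TGF-beta ligands are secreted in a latent form, and once released they bind the type II receptor, which recruits and phosphorylates the type I receptor. The type I receptor then phosphorylates SMAD2 and SMAD3, which enter the nucleus with SMAD4 and act on target genes together with other factors. Activins use related receptors and the same pair of SMADs, and in bronchial epithelium TGF-beta is known for arresting growth and for inducing matrix and mesenchymal genes. SMAD complexes bind short CAGAC elements.

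The start-site sequences of 3 members whose levels differed at 500 nM are shown because the results turn on these genes. TGFB2 and INHBA have 1 window each, and the PMEPA1 window is 1 of 4, chosen for its motif matches as the only one of them with a cyclic AMP response element; another PMEPA1 window held no SMAD element. They come from RefSeq, build GRCh38.p14, and run 5′ to 3′ on the gene's strand from 250 bases before the start to 50 bases after it. Capitals mark matches, on either strand, to the SMAD element CAGAC, the E-box CACGTG, the cyclic AMP response element TGACGTCA (CRE) and its core TGACG. The TGFB2 window lies at chr1:218345086-218345385 on the plus strand, the INHBA window at chr7:41703041-41703340 on the minus strand, and the PMEPA1 window at chr20:57709966-57710265 on the minus strand.
TGFB2: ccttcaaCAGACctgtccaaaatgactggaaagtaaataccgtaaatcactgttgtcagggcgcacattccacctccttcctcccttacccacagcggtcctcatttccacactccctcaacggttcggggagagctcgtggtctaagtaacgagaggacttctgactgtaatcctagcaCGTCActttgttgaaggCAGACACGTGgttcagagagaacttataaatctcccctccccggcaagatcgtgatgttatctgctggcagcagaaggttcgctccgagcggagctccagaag
INHBA: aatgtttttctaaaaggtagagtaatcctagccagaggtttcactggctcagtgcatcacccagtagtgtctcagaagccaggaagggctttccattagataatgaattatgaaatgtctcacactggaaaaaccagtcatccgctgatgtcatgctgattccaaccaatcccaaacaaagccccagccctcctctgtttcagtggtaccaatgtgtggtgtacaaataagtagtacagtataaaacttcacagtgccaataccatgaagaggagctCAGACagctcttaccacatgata
PMEPA1: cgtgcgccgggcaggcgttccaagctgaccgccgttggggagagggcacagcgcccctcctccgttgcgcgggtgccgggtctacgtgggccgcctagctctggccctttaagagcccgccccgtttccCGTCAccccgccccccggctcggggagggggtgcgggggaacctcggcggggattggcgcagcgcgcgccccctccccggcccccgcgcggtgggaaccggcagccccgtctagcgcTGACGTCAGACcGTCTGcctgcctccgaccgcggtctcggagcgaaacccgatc
TGFB2 had 2 CAGAC matches, and the one nearer the start shared a base with the CACGTG match. INHBA had 1 CAGAC match, just after its start. In PMEPA1 the full TGACGTCA spanned the start, shared bases with a CAGAC match and was followed by a second SMAD element on the other strand (GTCTG). All 9 members had at least 1 window, 26 windows in all, since some genes have several annotated starts. CAGAC or its reverse complement was in 15 of the 26, against 45.3% of 35116 windows of the same length. TGFBR1 had 8 of the 26 windows and TGIF1 had 7, and some of these overlap, so the same site can count more than once. TGFB1, TGFBR2 and TGFBI had no such match. The AP-1 element TGANTCA was in 4 windows, against 7.71% of all windows. CACGTG was in 1 window, against 7.26%, and TGACGTCA in 2, those of PMEPA1 and SKIL, against 1.85%. Its core TGACG, which every full match contains, was in 4 windows, against 24.6%. These are matches of letters and show no binding.

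At the highest doses the members stood mostly above DMSO. At 1000 nM, 9 of the 15 tested probe sets, from 6 genes, rose and 2 fell, in a comparison where 28.9% of all tested probe sets rose and 31.0% fell. At 500 nM, 8 of the 15, from 5 genes, rose and 0 fell, where 23.1% of all tested probe sets rose and 22.3% fell. The median log2 change of the 15 was 0.31 at 1000 nM and 0.37 at 500 nM, and the median over all tested probe sets was -0.01 at 1000 nM and 0.01 at 500 nM. Rose and fell here mean an adjusted p under 0.05 in limma, from a single fit of all 10 groups with Benjamini-Hochberg adjustment over 27307 probe sets. Changes are on the scale of log2(intensity + 16), which understates changes of dim probe sets, and are given with their standard error. Every comparison with DMSO used its same 3 arrays. In whole cultures, fewer cells of a type and less RNA per cell cannot be told apart. The 2 highest doses also differed from DMSO in a measure of RNA quality, the log2 ratio of the 3′ to the 5′ actin control probe sets, which was 1.52 ± 0.04 at 1000 nM and 1.67 ± 0.20 at 500 nM, against 2.21 ± 0.07 in DMSO (SD, n = 3 each). The GAPDH ratio went the other way, at 0.17 ± 0.01 at 1000 nM and 0.20 ± 0.04 at 500 nM, against 0.14 ± 0.01 in DMSO (SD, n = 3 each). With the mean of both ratios as a covariate, 6 of the 15 probe sets passed at 1000 nM, 3 higher and 3 lower, where 40.7% of all tested probe sets were called. TGFB1, INHBA, both PMEPA1 probe sets other than 222449_at and both risen SKIL probe sets lost their call there, with adjusted p values of 0.12 to 0.67, and TGIF1 203313_s_at gained one at -0.73 (adjusted p = 0.025). A lost call was not always a smaller change, since TGFB1 stood at 0.41 with the covariate and 0.34 without it. At 500 nM the covariate left 9 of the 15 called, 7 higher and 2 lower, where 35.5% of all tested probe sets were called. The 2 lower were TGFBR2 208944_at at -0.33 (adjusted p = 0.017) and SKIL 225227_at at -0.45 (adjusted p = 0.0088). The mean of both ratios was 0.84 ± 0.02 at 1000 nM and 0.93 ± 0.08 at 500 nM, against 1.18 ± 0.04 in DMSO (SD, n = 3 each). The dose and the quality measure therefore cannot be told apart in these comparisons.

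**Figure D1:**
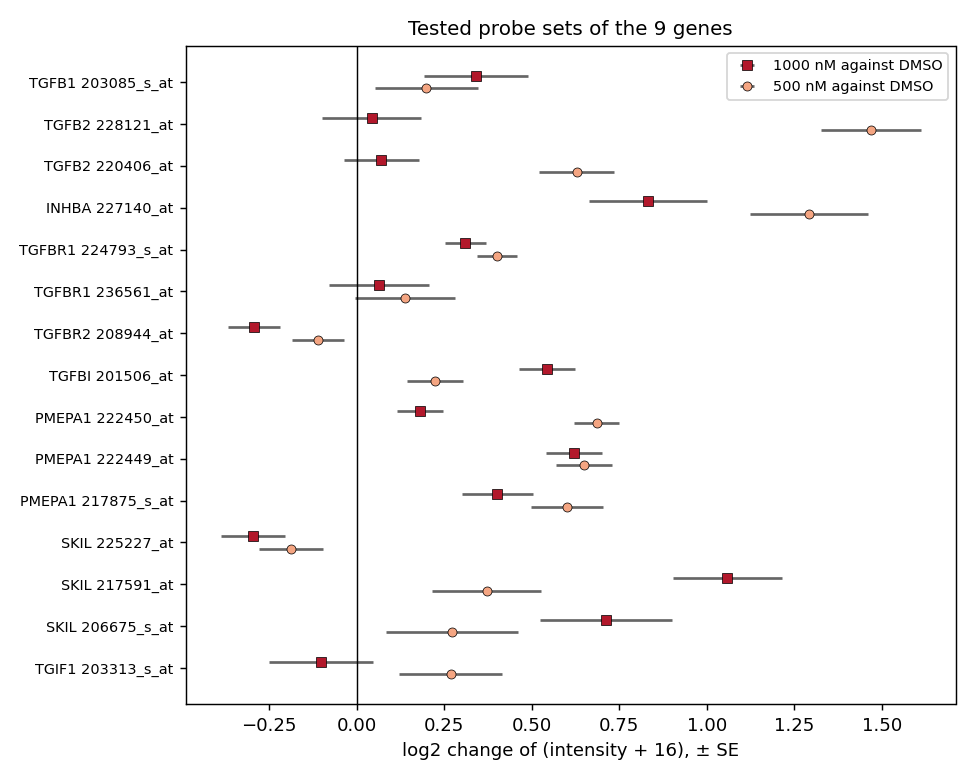
Log2 change against DMSO, with its standard error, of the 15 tested probe sets of the 9 genes at 1000 nM (squares) and 500 nM (circles). TGFB2 228121_at stands at 0.04 at 1000 nM and 1.47 at 500 nM, while SKIL 217591_at stands at 1.06 at 1000 nM and 0.37 at 500 nM.

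TGFB2, the gene of the TGF-beta 2 ligand, passed the test against DMSO at 500 nM and at no other dose. Its brightest probe set, 228121_at, read 109.6, 95.4 and 131 at 1000 nM and 331, 305 and 342 at 500 nM, against 116, 107 and 99.4 in DMSO. The 3 arrays at 500 nM lay above every other array, and those at 1000 nM overlapped DMSO. The 20 arrays at 0.1 to 100 nM ran from 78.6 through a median of 109 to 134. The log2 change was 1.47 ± 0.14 at 500 nM (limma, adjusted p = 3.7e-09) and 0.04 ± 0.14 at 1000 nM (limma, adjusted p = 0.81). Set directly against 500 nM, 1000 nM was lower by a log2 difference of -1.43 ± 0.14 (limma, adjusted p = 1.6e-08).

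A second TGFB2 probe set, 220406_at, showed the same order at a dimmer level. It read 45.3, 36.9 and 45.3 at 1000 nM and 63.5, 63.3 and 84.8 at 500 nM, against 30.9, 45.3 and 43.9 in DMSO. Only the 500 nM arrays lay clear of DMSO, with a log2 change of 0.63 ± 0.11 (limma, adjusted p = 2.8e-05), which did not pass with the RNA quality covariate (0.35, adjusted p = 0.091). The change at 1000 nM was 0.07 ± 0.11 (limma, adjusted p = 0.59), and 1000 nM against 500 nM gave -0.56 ± 0.11 (limma, adjusted p = 0.00015). Of the dimmer TGFB2 probe sets, 220407_s_at read 29.1, 20.6 and 23.4 at 1000 nM and 58.3, 61.6 and 40.3 at 500 nM, against 20.0, 16.8 and 22.02 in DMSO. All 3 arrays at 500 nM stood apart there too.

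INHBA encodes the beta A subunit, whose dimer is activin A. Its tested probe set, 227140_at, read 190.4, 228 and 234 at 1000 nM and 299.7, 226 and 414 at 500 nM, against 142, 103 and 103 in DMSO. Both doses lay above every DMSO array and above the 20 arrays at 0.1 to 100 nM, which ran from 80.3 through 108 to 174. The log2 change was 1.29 ± 0.17 at 500 nM (limma, adjusted p = 6.2e-07) and 0.83 ± 0.17 at 1000 nM (limma, adjusted p = 0.00013). INHBA was lower at 1000 nM than at 500 nM by -0.46 ± 0.17 (limma, adjusted p = 0.029), although the arrays overlapped. Array 3 at 500 nM was the brightest, and without it that difference was -0.25 (adjusted p = 0.23). Without array 1 at 500 nM its adjusted p was 0.056, and without array 1 at 1000 nM it was 0.13.

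TGFB1, the gene of the TGF-beta 1 ligand, moved less. Its tested probe set, 203085_s_at, read 96.8, 63.6 and 67.1 at 1000 nM and 78.2, 71.6 and 51.4 at 500 nM, against 45.7, 58.0 and 64.6 in DMSO. The 500 nM and DMSO arrays overlapped, and the lowest 1000 nM array lay under the highest DMSO array. The change at 500 nM was 0.20 ± 0.15 (limma, adjusted p = 0.28). The change of 0.34 ± 0.15 at 1000 nM passed the threshold narrowly (limma, adjusted p = 0.049), and 24 of 39 alternative settings put it at or over the threshold. It was 0.18 without 1000 nM array 1 (adjusted p = 0.32) and 0.23 without DMSO array 1 (adjusted p = 0.22).

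**Figure D2:**
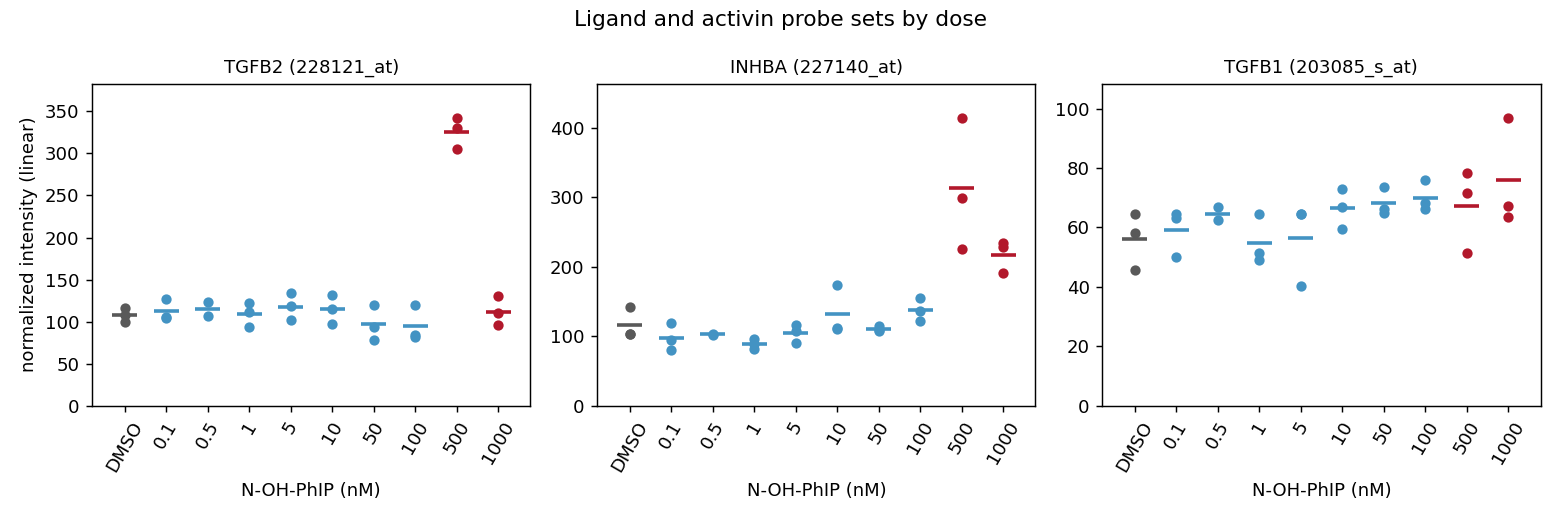
Intensity of TGFB2 228121_at, INHBA 227140_at and TGFB1 203085_s_at in every array, by dose from DMSO to 1000 nM, with points for arrays and bars for group means. TGFB2 is high at 500 nM alone (305 to 342), INHBA at 500 nM and 1000 nM (190.4 to 414), and the TGFB1 arrays overlap.

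The receptor probe sets did not all move the same way. TGFBR1 encodes the type I receptor kinase. Probe set 224793_s_at read 2339, 2594 and 2719 at 1000 nM and 2863, 2540.5 and 2744 at 500 nM, against 2187, 1933 and 2035 in DMSO. Every array of both doses lay above every DMSO array. The log2 change was 0.40 ± 0.06 at 500 nM (limma, adjusted p = 2.3e-06) and 0.31 ± 0.06 at 1000 nM (limma, adjusted p = 4.1e-05), and the difference of 1000 nM from 500 nM did not pass (-0.09 ± 0.06, adjusted p = 0.21).

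The second tested TGFBR1 probe set, 236561_at, was the dimmest member tested, just over the level minimum, and its DMSO arrays were themselves high. It read 57.8, 47.0 and 52.7 at 1000 nM and 51.9, 48.5 and 69.3 at 500 nM, against 61.6, 49.2 and 39.5 in DMSO. These overlap, yet all 6 arrays at 1000 and 500 nM lay above the 20 arrays at 0.1 to 100 nM. Those 20 ran from 25.9 through 32.7 to 46.7, a median under the level minimum. The probe set met that minimum through its brighter groups, DMSO among them, so this gap is a description only. Against DMSO the change was 0.14 ± 0.14 at 500 nM and 0.06 ± 0.14 at 1000 nM, neither of which passed. The third TGFBR1 probe set, 206943_at, lay just under the level minimum and read 62.3, 55.8 and 60.3 at 1000 nM and 45.8, 42.1 and 66.5 at 500 nM, against 42.2, 26.7 and 28.8 in DMSO. In a fit without the level minimum it rose by 0.65 ± 0.14 at 1000 nM (limma, adjusted p = 0.00075) and by 0.47 ± 0.14 at 500 nM (limma, adjusted p = 0.017), more than the brightest TGFBR1 probe set.

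TGFBR2 encodes the type II receptor, which binds the ligand first. Probe set 208944_at read 1725, 1661 and 1752 at 1000 nM and 2109, 1619.9 and 2151 at 500 nM, against 2053, 2165 and 2085 in DMSO. The 1000 nM arrays lay below all DMSO arrays, with a change of -0.29 ± 0.07 (limma, adjusted p = 0.0013), while those at 500 nM overlapped them (-0.11 ± 0.07, adjusted p = 0.23). At 500 nM it passed without array 3, at -0.18 (adjusted p = 0.048), and stood at 0.02 without array 2 (adjusted p = 0.82). The difference between 1000 nM and 500 nM, -0.18 ± 0.07, had an adjusted p of 0.049 in limma and passed in 9 of 39 alternative settings. Without 500 nM array 1 it was -0.12 (adjusted p = 0.24), and without 500 nM array 3 it was -0.11 (adjusted p = 0.25). Levels under DMSO were not limited to the highest dose. At 0.1 nM the arrays read 1755, 1760.3 and 1825, all below DMSO, a change of -0.24 ± 0.07 that did not pass (limma, adjusted p = 0.15). The dimmer TGFBR2 probe set, 207334_s_at, went the other way at 1000 nM, with a change of 0.27 ± 0.11 in the fit without the level minimum (limma, adjusted p = 0.047), and stood at 0.16 ± 0.11 at 500 nM (limma, adjusted p = 0.31).

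Of the target genes, PMEPA1 gave the most even picture at 500 nM. It encodes a membrane protein that is induced by TGF-beta and restrains receptor signalling by holding SMAD2 and SMAD3. Its 3 tested probe sets all rose at 500 nM and parted at 1000 nM. Probe set 222450_at read 1224, 984 and 1135 at 1000 nM and 1509.5, 1705 and 1532 at 500 nM, against 937, 977 and 1017 in DMSO. The 500 nM arrays lay above every other array, and those at 1000 nM overlapped DMSO. The change was 0.69 ± 0.07 at 500 nM (limma, adjusted p = 3.0e-09) and 0.18 ± 0.07 at 1000 nM (limma, adjusted p = 0.019), and 1000 nM was lower than 500 nM by -0.50 ± 0.07 (limma, adjusted p = 9.0e-07).

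For 222450_at the arrays at 0.5, 1, 5, 10 and 50 nM also lay above all 3 DMSO arrays, by 0.14 to 0.28, without passing. Against the mean of the 5 lowest doses the change at 1000 nM was -0.01, so the call at 1000 nM was lost and its sign turned. It was lost as well without DMSO array 1, 1000 nM array 1 or 1000 nM array 3.

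The second PMEPA1 probe set, 222449_at, stayed high at 1000 nM. It read 1558, 1512 and 1413 at 1000 nM and 1531, 1629.5 and 1419.7 at 500 nM, against 965, 952 and 980.4 in DMSO. Neither dose overlapped DMSO. The change was 0.65 ± 0.08 at 500 nM (limma, adjusted p = 2.1e-07) and 0.62 ± 0.08 at 1000 nM (limma, adjusted p = 2.0e-07), and the difference between the doses was -0.03 ± 0.08 (adjusted p = 0.79). The third, 217875_s_at, read 136, 102 and 98.5 at 1000 nM and 127, 133 and 129.8 at 500 nM, against 80.5, 74.5 and 86.0 in DMSO, again with no overlap. Its change was 0.60 ± 0.10 at 500 nM (limma, adjusted p = 3.0e-05) and 0.40 ± 0.10 at 1000 nM (limma, adjusted p = 0.0015). The annotation does not say which transcripts each probe set reads.

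TGFBI encodes a secreted matrix protein that TGF-beta induces. Probe set 201506_at, the only one on the array for this gene alone, read 4324, 4491 and 4303 at 1000 nM and 3343, 4218 and 3042 at 500 nM, against 2967, 3011 and 3009 in DMSO. The 1000 nM arrays were the highest of all 29, and at 500 nM only array 2 stood clearly apart. The change was 0.54 ± 0.08 at 1000 nM (limma, adjusted p = 1.9e-06) and 0.22 ± 0.08 at 500 nM (limma, adjusted p = 0.025). Without array 2 at 500 nM the change at that dose was 0.09 (adjusted p = 0.30), and without DMSO array 1 its adjusted p was 0.062. TGFBI was higher at 1000 nM than at 500 nM by 0.32 ± 0.08 (limma, adjusted p = 0.0021).

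SKIL encodes SnoN, a nuclear co-repressor of SMAD complexes that TGF-beta both degrades and induces. Its 3 tested probe sets disagreed in direction at 1000 nM. Probe set 217591_at read 481, 448 and 368 at 1000 nM and 269.7, 194 and 337 at 500 nM, against 168, 223 and 206 in DMSO. The 1000 nM arrays lay above all others, and at 500 nM array 2 lay within the DMSO range while the others lay above it. The change was 1.06 ± 0.16 at 1000 nM (limma, adjusted p = 1.9e-06) and 0.37 ± 0.16 at 500 nM (limma, adjusted p = 0.055). Without array 2 at 500 nM, the lowest, that dose passed at 0.57 (adjusted p = 0.0039), as it did in 5 of 39 alternative settings in all.

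Probe set 206675_s_at of SKIL read 115, 74.3 and 96.2 at 1000 nM and 61.7, 39.3 and 108 at 500 nM, against 48.9, 62.5 and 43.3 in DMSO. It rose at 1000 nM by 0.71 ± 0.19 (limma, adjusted p = 0.0020), with all 3 arrays above DMSO. At 500 nM its change was 0.27 ± 0.19 (limma, adjusted p = 0.25), and it passed without array 2 at 0.55 (adjusted p = 0.013). The brightest SKIL probe set, 225227_at, read 1099, 1257 and 1259 at 1000 nM and 1372, 1029.6 and 1545 at 500 nM, against 1437, 1517 and 1486 in DMSO. There the 1000 nM arrays lay below DMSO and below the 20 arrays of the lower doses, with a change of -0.30 ± 0.09 (limma, adjusted p = 0.0070). Without 1000 nM array 1 its adjusted p was 0.054. At 500 nM the change was -0.19 ± 0.09 (limma, adjusted p = 0.097), and without array 3 it passed at -0.31 (adjusted p = 0.0039).

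TGIF1 encodes a homeodomain co-repressor that binds SMAD2 and SMAD3. Probe set 203313_s_at read 374, 414 and 393 at 1000 nM and 505, 357 and 747 at 500 nM, against 423, 424 and 423 in DMSO. The 500 nM arrays spread to both sides of DMSO, and the 1000 nM arrays lay just under it. Neither dose passed against DMSO, with 0.27 ± 0.15 at 500 nM (limma, adjusted p = 0.14) and -0.10 ± 0.15 at 1000 nM (limma, adjusted p = 0.57). Without array 2 at 500 nM that dose passed at 0.52 (adjusted p = 0.0012), and without array 3 it stood at 0.0044 (adjusted p = 0.98). A dimmer TGIF1 probe set, 1566901_at, read 18.6, 28.5 and 22.4 at 1000 nM and 32.8, 31.7 and 34.8 at 500 nM, against 9.46, 13.4 and 18.1 in DMSO. In the fit without the level minimum it rose by 0.74 ± 0.10 at 500 nM (limma, adjusted p = 1.8e-06) and by 0.40 ± 0.10 at 1000 nM (limma, adjusted p = 0.0016).

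**Figure D3:**
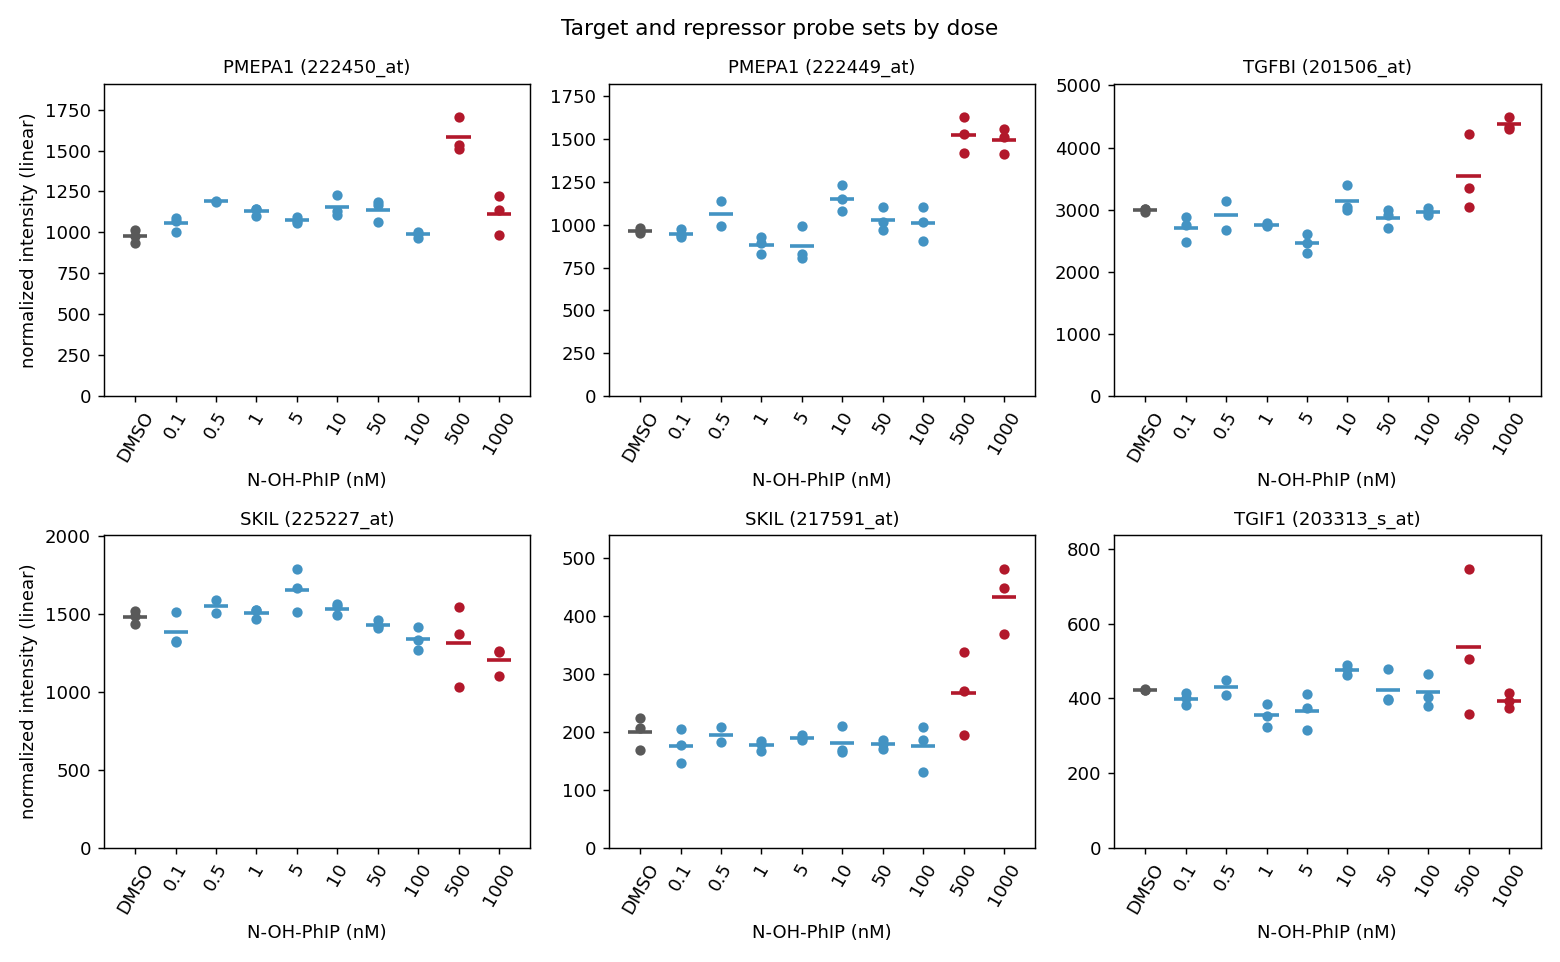
Intensity of PMEPA1 222450_at and 222449_at, TGFBI 201506_at, SKIL 225227_at and 217591_at, and TGIF1 203313_s_at in every array, by dose from DMSO to 1000 nM, with points for arrays and bars for group means. PMEPA1 222450_at is high at 500 nM alone (1509.5 to 1705), and TGFBI and SKIL 217591_at are highest at 1000 nM.

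Between the 2 highest doses, 8 of the 15 probe sets differed in limma, 2 higher and 6 lower at 1000 nM, where 17.7% of all tested probe sets were higher and 25.6% lower. The 2 higher were TGFBI 201506_at and SKIL 217591_at, SKIL by 0.69 ± 0.16 (limma, adjusted p = 0.00087). The 6 lower were both TGFB2 probe sets, INHBA 227140_at, PMEPA1 222450_at, TGFBR2 208944_at and TGIF1 203313_s_at. TGIF1, at -0.37 ± 0.15 (limma, adjusted p = 0.045), lost the call in 20 of 39 alternative settings, and without 500 nM array 3 it stood at -0.11 (adjusted p = 0.49). The arrays of the 2 doses did not overlap for 5 of the 15 probe sets, above for TGFBI and SKIL 217591_at and below for both TGFB2 probe sets and PMEPA1 222450_at. Over all tested probe sets, every 1000 nM array lay above every 500 nM array for 17.8% and below for 23.6%. SKIL 206675_s_at, not called between these doses, passed at 0.74 without 500 nM array 3 (adjusted p = 0.00059), and SKIL 225227_at passed at -0.27 without 500 nM array 2 (adjusted p = 0.0032). Array 3 at 500 nM was the highest of its dose, and array 2 the lowest, for INHBA, TGIF1 and all 3 SKIL probe sets. The same order held for both tested TGFB2 probe sets, TGFBR2 208944_at and the dimmer tested TGFBR1 probe set. The remaining tested probe sets did not share it. Array 3 also had the lowest correlation of all arrays with the others of its group, 0.985, and array 2 the next lowest, 0.986.

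Below 500 nM no member passed. In limma 0 of the 15 probe sets were called against DMSO in each of these 7 groups. The share called among all tested probe sets was 0.597% for the 0.1 nM group, 0.0439% for 0.5 nM, 0.780% for 1 nM, 1.11% for 5 nM, 0.242% for 10 nM, 0.264% for 50 nM and 2.90% for 100 nM. An unadjusted p under 0.05 was reached by 2 of the 15 for 0.1 nM, 2 for 0.5 nM, 4 for 1 nM, 5 for 5 nM, 3 for 10 nM, 2 for 50 nM and 2 for 100 nM. Over all tested probe sets, 12.4% reached it for 0.1 nM, 10.7% for 0.5 nM, 12.9% for 1 nM, 15.2% for 5 nM, 13.4% for 10 nM, 8.84% for 50 nM and 15.3% for 100 nM. The members nearest to a call were TGFBI at 5 nM, PMEPA1 222450_at at 10 and 0.5 nM, and TGFBR1 236561_at at 5 nM. TGFBI read 2612, 2468 and 2294 at 5 nM, all below the DMSO arrays, a change of -0.29 ± 0.08 (limma, adjusted p = 0.071). It passed without 500 nM array 2 (adjusted p = 0.013) or array 3 (adjusted p = 0.028), arrays that enter only through the shared estimate of the spread and the adjustment. PMEPA1 222450_at stood at 0.28 ± 0.07 at 0.5 nM (limma, adjusted p = 0.12) and 0.24 ± 0.07 at 10 nM (limma, adjusted p = 0.11). TGFB2 228121_at averaged 108 ± 8.33 in DMSO, 118 ± 16.3 at 5 nM, 97.4 ± 21.0 at 50 nM and 95.3 ± 21.0 at 100 nM (SD, n = 3 each).

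Across the 9 doses, a slope fitted to log10 dose in the 26 treated arrays passed for 10 of the 15 probe sets, 9 upward and 1 downward, where 30.6% of all tested probe sets sloped upward and 28.9% downward. INHBA 227140_at had the steepest, 0.33 ± 0.05 log2 per 10-fold dose (limma, adjusted p = 1.1e-05). The slope was 0.20 ± 0.05 for SKIL 217591_at (limma, adjusted p = 0.0014), 0.16 ± 0.03 for PMEPA1 222449_at (limma, adjusted p = 7.6e-05) and 0.13 ± 0.03 for TGFBI (limma, adjusted p = 0.00015). SKIL 225227_at was the 1 that sloped downward, by -0.07 ± 0.02 (limma, adjusted p = 0.013). TGFB2 228121_at, high at 1 dose, did not pass (0.13 ± 0.07, adjusted p = 0.10), nor did PMEPA1 222450_at (0.05 ± 0.03, adjusted p = 0.12). In a fit without the level minimum, the slopes of the dimmer TGFB2 209909_s_at and 220407_s_at did pass. They were 0.15 ± 0.04 and 0.14 ± 0.04 (limma, adjusted p = 0.0058 and 0.013). Of the 12 dimmer probe sets, 7 sloped upward and 0 downward in that fit, where 41.9% of all probe sets were called in either direction. With the RNA quality covariate 0 of the 15 slopes passed in limma, 0 had an unadjusted p under 0.05, and 120 of all 27307 tested probe sets passed. That covariate itself falls at the 2 highest doses, so the dose and the quality measure cannot be told apart in a slope either.

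The 12 probe sets under the level minimum were put through a fit of all 54613 probe sets that are not controls. At 1000 nM 5 of the 12 rose and 0 fell, where 35.6% of all probe sets were called in either direction. At 500 nM 7 of the 12 rose and 0 fell, where 25.2% were called in either direction. Of all calls in that fit, 50.9% at 1000 nM and 51.5% at 500 nM were upward. These shares cover bright and dim probe sets together. Between 1000 nM and 500 nM 3 differed, where 22.8% of all probe sets were called, and all were lower at 1000 nM. They were TGFB2 220407_s_at and 209909_s_at and TGIF1 1566901_at. TGFB2 220407_s_at rose by 0.95 ± 0.10 at 500 nM (limma, adjusted p = 3.4e-08) and TGFB2 209909_s_at by 0.82 ± 0.12 (limma, adjusted p = 1.2e-05). At 1000 nM neither passed, with 0.18 ± 0.10 for 220407_s_at (adjusted p = 0.17) and 0.15 ± 0.12 for 209909_s_at (adjusted p = 0.38). INHBA 210511_s_at read 42.0, 43.9 and 41.3 at 1000 nM and 46.2, 42.5 and 48.1 at 500 nM, against 36.4, 33.8 and 27.2 in DMSO. It rose by 0.27 ± 0.10 at 1000 nM and 0.35 ± 0.10 at 500 nM (limma, adjusted p = 0.026 and 0.0073), with no overlap with DMSO. The dimmest changes that passed were those of INHBA 204926_at, 0.17 ± 0.04 at 1000 nM and 0.13 ± 0.04 at 500 nM (limma, adjusted p = 0.0010 and 0.019), and of TGFB2 209908_s_at, 0.13 ± 0.05 at 500 nM (limma, adjusted p = 0.040), and no array of these groups read over 12.5 for either. TGFB2 209908_s_at stood at 0.07 ± 0.05 at 1000 nM (limma, adjusted p = 0.28). The other 4 passed at neither dose. They were TGFB1 203084_at (0.04 ± 0.06 at 1000 nM and 0.01 ± 0.06 at 500 nM), SKIL 215889_at (-0.01 ± 0.16 and -0.29 ± 0.16), SKIL 232379_at (0.02 ± 0.10 and 0.08 ± 0.10) and TGIF1 244858_at (0.05 ± 0.07 and -0.01 ± 0.07), with adjusted p values in limma of 0.18 to 0.96. The probe set of the members just outside the level minimum was TGFBR1 206943_at, with a mean intensity of 36.8, and the one just inside was TGFBR1 236561_at, at 39.9. Such levels were not shown to be above background here.

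Other genes of the pathway, taken from lists by role that were drawn up with earlier results of these data known, numbered 66, of which 55 had a tested probe set. Each gene is represented by its brightest tested probe set, and on that basis 27.3% of 12174 genes rose and 35.8% fell at 1000 nM, and 25.2% rose and 24.8% fell at 500 nM. Of 5 other ligands, 2 rose and 1 fell at 1000 nM, and 3 rose and 1 fell at 500 nM. BMP2, a bone morphogenetic protein, averaged 964 ± 139.5 at 1000 nM and 861 ± 95.5 at 500 nM, against 411 ± 34.5 in DMSO (SD, n = 3 each). INHBE, another inhibin beta subunit, fell by 1.21 ± 0.13 on the log2 scale at each dose (limma, adjusted p = 9.7e-09 at 1000 nM and 2.1e-08 at 500 nM). Its level was 36.4 ± 1.92 at 1000 nM and 36.2 ± 0.756 at 500 nM, both under the level minimum, against 106 ± 13.4 in DMSO (SD, n = 3 each). GDF15, a stress-responsive divergent ligand, rose by 0.68 ± 0.07 at 1000 nM and 0.92 ± 0.07 at 500 nM (limma, adjusted p = 5.1e-09 and 5.1e-11).

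Of 9 genes of the latent complex and its activation, 3 rose and 2 fell at 1000 nM, and 4 rose and 1 fell at 500 nM. LTBP1, which anchors latent TGF-beta in the matrix, averaged 27.4 ± 8.99 at 1000 nM and 39.1 ± 6.97 at 500 nM, against 296 ± 19.8 in DMSO (SD, n = 3 each). That is a log2 change of -2.87 ± 0.15 at 1000 nM and -2.51 ± 0.15 at 500 nM (limma, adjusted p = 1.4e-14 and 4.5e-13), with the 1000 nM level under the minimum set for testing. THBS1, the thrombospondin that can release latent TGF-beta, rose by 1.78 ± 0.25 at 1000 nM and 1.93 ± 0.25 at 500 nM (limma, adjusted p = 6.8e-07 and 4.4e-07). Its arrays spread widely at 500 nM, with 2046 ± 970 there and 1717 ± 70.3 at 1000 nM, against 487 ± 17.1 in DMSO (SD, n = 3 each).

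Of 7 other receptors and co-receptors, 0 rose and 4 fell at each of the 2 doses, namely TGFBR3, ACVR1, BMPR2 and ACVR2A. TGFBR3, the co-receptor betaglycan, changed by -0.62 ± 0.12 at 1000 nM (limma, adjusted p = 4.8e-05), and ACVR1, a type I receptor of activin and bone morphogenetic proteins, by -0.66 ± 0.09 (limma, adjusted p = 3.7e-07). Of 5 SMADs and partners, 1 rose and 2 fell at 1000 nM, and 2 rose and 2 fell at 500 nM. SMAD2 averaged 1339.6 ± 49.4 at 1000 nM and 1676 ± 118 at 500 nM, against 1919.9 ± 61.6 in DMSO (SD, n = 3 each), and fell at both doses. SMAD3 rose at 500 nM and did not pass at 1000 nM, with 1626 ± 44.6 at 1000 nM and 2300.4 ± 247 at 500 nM, against 1652 ± 53.4 in DMSO (limma, adjusted p = 1.6e-06 at 500 nM and 0.79 at 1000 nM). ZFYVE9, which presents SMADs to the receptor, fell by 0.86 ± 0.08 on the log2 scale at 1000 nM (limma, adjusted p = 6.7e-10).

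Of 12 genes that restrain the pathway, 5 rose and 3 fell at 1000 nM, and 7 rose and 2 fell at 500 nM. SMAD7, the inhibitory SMAD that TGF-beta induces, rose by 1.19 ± 0.12 at 1000 nM and 1.14 ± 0.12 at 500 nM (limma, adjusted p = 4.4e-09 and 2.2e-08). FST and FSTL3, which bind and block activin, rose at both doses, FSTL3 by 1.94 ± 0.14 at 1000 nM and 1.24 ± 0.14 at 500 nM (limma, adjusted p = 5.2e-12 and 4.1e-08). BAMBI, a pseudoreceptor, rose by 2.83 ± 0.16 at 1000 nM and 0.83 ± 0.16 at 500 nM (limma, adjusted p = 7.5e-14 and 0.00014). Of 18 other target genes, 14 rose and 1 fell at 1000 nM, and 14 rose and 2 fell at 500 nM, with a median log2 change of 0.80 at 1000 nM and 0.72 at 500 nM. LTBP2 is counted both here and among the genes of the latent complex. COL4A1 fell at both doses, with -0.32 ± 0.08 at 1000 nM and -0.52 ± 0.08 at 500 nM. FN1 fell at 500 nM (-0.26 ± 0.06) and rose at 1000 nM (0.22 ± 0.06). IL11, a cytokine gene, averaged 609 ± 50.8 at 1000 nM and 279 ± 23.3 at 500 nM, against 53.7 ± 14.8 in DMSO (SD, n = 3 each). LBH, a transcriptional cofactor, rose by 2.27 ± 0.11 at 1000 nM and 1.83 ± 0.11 at 500 nM (limma, adjusted p = 5.2e-15 and 7.3e-13). SNAI2, a repressor of epithelial genes, rose by 1.15 ± 0.15 at 1000 nM and 1.67 ± 0.15 at 500 nM (limma, adjusted p = 4.3e-07 and 1.6e-09).

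**Figure D4:**
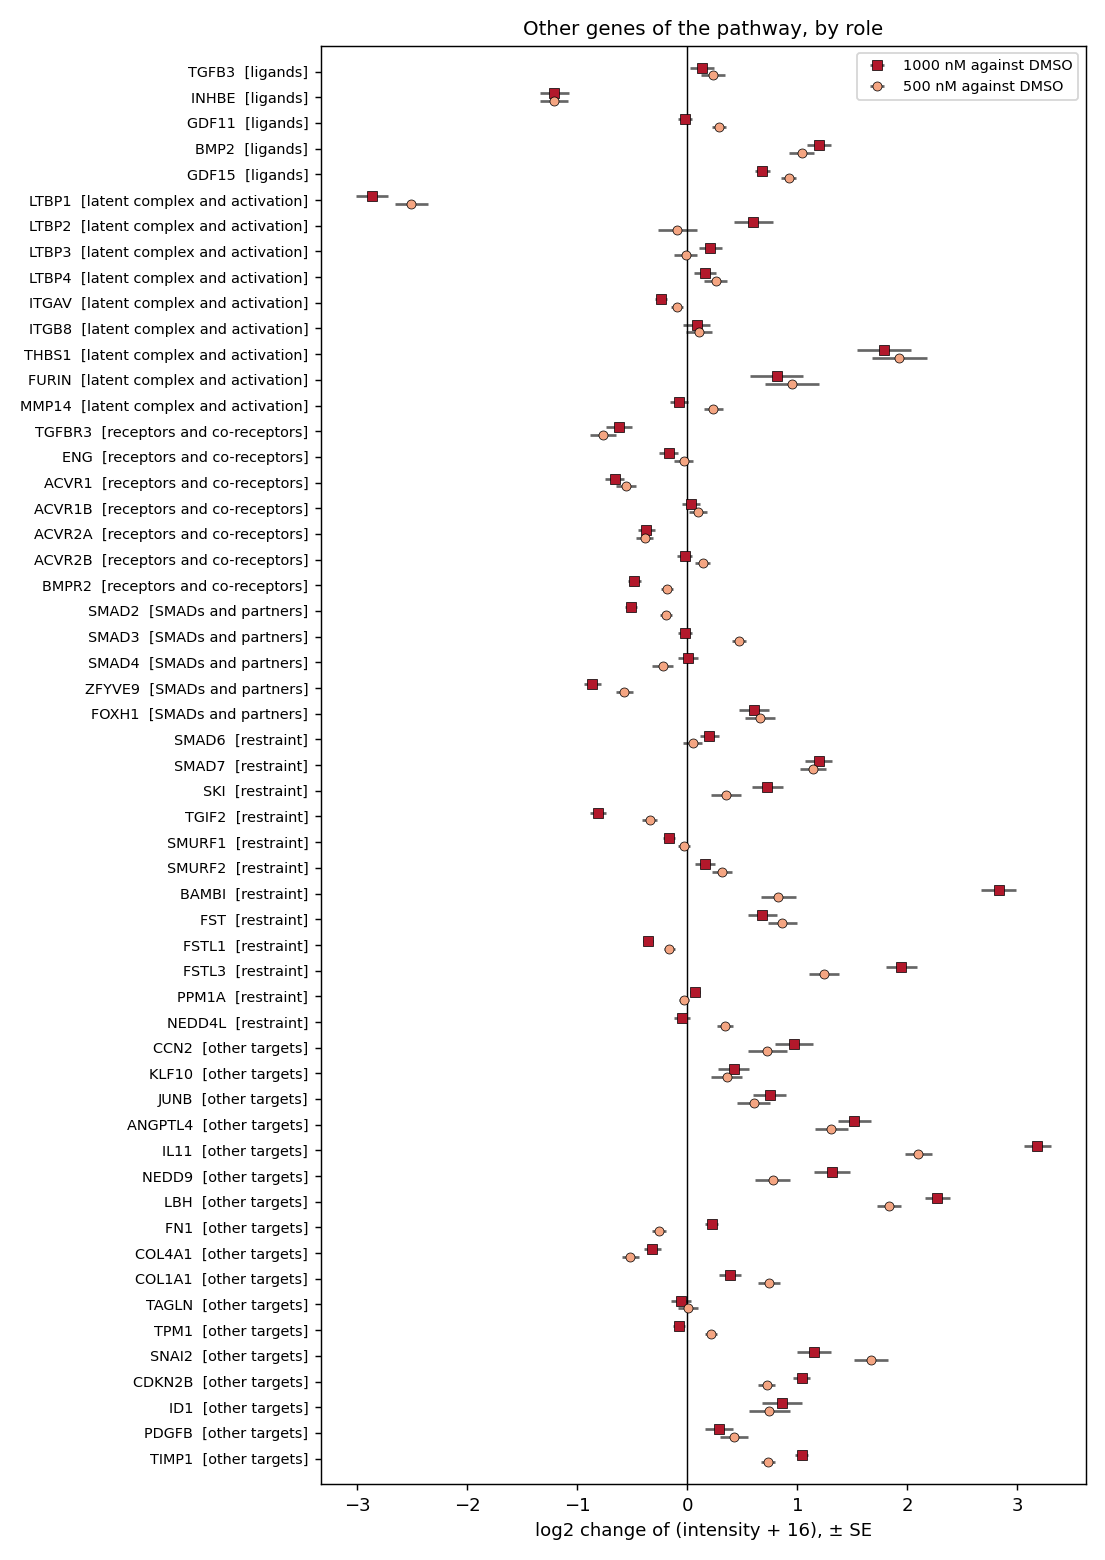
Log2 change against DMSO, with its standard error, of the 55 tested pathway genes that are not members, at 1000 nM (squares) and 500 nM (circles), with the list of each gene in brackets. LTBP1 is lowest (-2.87 at 1000 nM) and IL11 highest (3.18 at 1000 nM).

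The genes whose level followed a member most closely over the 10 group means are given as a description, since the points share the DMSO and high-dose groups and the highest values were picked. For TGFB2 228121_at these were NAV2, MAST4 and RASSF6, with Pearson correlations of 0.986, 0.974 and 0.969. NAV2 changed by 0.92 at 500 nM and 0.09 at 1000 nM on the log2 scale. For INHBA 227140_at they were GRAMD2B, BDNF and SNAI2, at 0.995, 0.994 and 0.993, and BDNF, a neurotrophin gene, changed by 1.97 at 500 nM and 1.25 at 1000 nM. For PMEPA1 222450_at they were KRI1, NACC2 and ZMIZ2, at 0.961, 0.947 and 0.945.

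The arrays had a common scale as deposited, with means after trimming between 299 and 309 over all 29. Of 8 airway epithelial markers, 6 (KRT5, KRT8, KRT18, KRT19, EPCAM and CDH1) had tested probe sets, and their summed intensity was 21984 to 23453 at 1000 nM and 23638 to 26400 at 500 nM, against 19567 to 20348 in DMSO. Of 6 fibroblast markers only COL1A1, itself among the other target genes, was tested, and the list's sum was 815 to 901 at 1000 nM and 1000.2 to 1159 at 500 nM, against 637 to 719 in DMSO. Of 5 leukocyte markers only CD14 was tested, and that sum was 106 to 122 at 1000 nM and 69.7 to 75.1 at 500 nM, against 68.2 to 74.5 in DMSO. None of the 4 endothelial markers was tested. The fibroblast sum was almost all COL1A1, at 791 ± 43.2 at 1000 nM and 1015 ± 83.4 at 500 nM, against 601 ± 34.0 in DMSO (SD, n = 3 each), while the other 5 fibroblast markers had means of 6.04 to 20.5 in these groups. Not all epithelial markers followed their sum. CDH1 changed by -0.08 ± 0.03 at 1000 nM (limma, adjusted p = 0.027), and EPCAM passed at neither dose. KRT5, KRT8 and KRT19 rose at both doses and KRT18 at 500 nM alone. CD14 averaged 86.9 ± 8.40 at 1000 nM against 43.9 ± 3.59 in DMSO (SD, n = 3 each), while PTPRC, CD3E and LYZ had means of 6.51 to 10.8 in these groups. The epithelial and fibroblast sums were higher than in DMSO at both doses and the leukocyte sum at 1000 nM. The part of these sums in the changes of the members was not tested.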

How the data were processed

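Expression was measured with an Affymetrix 3′ array after NuGEN Ovation amplification of total RNA, per the labels' protocols. The authors deposited 1 linear intensity for each probe set, made with GCOS, per the submitters' processing notes, and no source used here gives the authors' normalization method. No detection calls were used. Trimmed means of 299 to 309 over the arrays led to no further normalization. Symbols were read from the annotation of the array, and all 9 members matched the RefSeq gene table by gene identifier with the same symbol. Groups came from the sample titles.

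Values were log2(intensity + 16). Of 54675 probe sets, 62 controls were left out, and the 27307 whose log2 value averaged no less than the median, 5.74, were tested. A limma fit (limma 3.58.1 in R 4.3.3) with 1 mean for each of the 10 groups, 19 residual degrees of freedom and eBayes with a trend in the variance gave two-sided tests. P values were adjusted by Benjamini-Hochberg over the 27307, with a threshold of 0.05. The dose trend used the 26 treated arrays. The fit was tested on simulated data. All probe sets of the members were reported, those under the level minimum from a fit without it, and for each pathway list up to 4 called genes with the largest change could be named. Members and lists were chosen with earlier results of these data known. Replicate numbers were checked for pairing through the correlation of deviations from the group means. Over 126 same-numbered pairs it had a median of 0.01 and ran from -0.52 to 0.75. Over 252 pairs of different number it had a median of -0.02 and ran from -0.62 to 0.50. The medians were close, so no block was used, although the same-numbered pairs reached the higher value. Alternatives covered the offset, normalization, level minimum, variance model, replicate block, RNA quality, the comparison group and each array left out. The number of arrays limits the precision. Figures were drawn with matplotlib 3.10.9.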

Additional observations from a re-analysis of the deposited data

How the results depend on the processing

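Counts are of the 15 tested member probe sets. Leaving out 1 array at a time, the number called ran from 8 to 11 at 1000 nM, 7 to 10 at 500 nM, 5 to 9 for 1000 nM against 500 nM and 9 to 12 for the trend. It ran from 0 to 1 at 5 nM and at 0.1 nM, and stayed at 0 at 100, 50, 10, 1 and 0.5 nM, where leaving out an array at 0.5 nM leaves 1 whose spread is assumed to be like that of the other groups. With the RNA quality covariate the count was 6 at 1000 nM (40.7% of all tested probe sets), 1 at 5 nM (2.41%) and 0 for the trend (0.439%). With the mean of 0.1 to 10 nM in place of DMSO it was 13 at 500 nM (56.7% of all) and 1 at 100 nM (5.73%). Fitting only the arrays of the 2 groups gave 1 at 0.1 nM (0.725% of all), 2 at 1 nM (2.85%) and 5 for 1000 nM against 500 nM (23.5%), and called 7146 of all probe sets at 500 nM, against 12392 in the fit of all groups. Without a level minimum 1000 nM against 500 nM gave 5 (22.8% of all). Among the upper 25% of levels, where 7 of the 15 remained tested, the count was 6 at 1000 nM (67.5% of all tested there), 4 at 500 nM (53.7%), 4 for 1000 nM against 500 nM (52.2%) and 4 for the trend (64.3%). The replicate block left the counts at 11 at 1000 nM, 8 at 500 nM, 8 for 1000 nM against 500 nM and 10 for the trend. The replicate numbers were not treated as pairing the arrays. Leaving out array 3 at 5 nM and at 500 nM together also changed calls. At 500 nM TGFB1 203085_s_at passed at 0.34, TGFBR2 208944_at at -0.18 and SKIL 225227_at at -0.31 (limma, adjusted p = 0.038, 0.049 and 0.0028). For 1000 nM against 500 nM, INHBA 227140_at (-0.25), TGFBR2 208944_at (-0.11) and TGIF1 203313_s_at (-0.11) lost their calls. SKIL 206675_s_at gained a call there, at 0.74 (limma, adjusted p = 0.00027).

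Of the alternative values of single members, 6255 kept their side of the threshold, 108 lost a call and 40 gained one. Another 4 changed sign with a call in the main or the alternative fit. The 6255 include values that changed sign while called in neither fit. TGFB2 220406_at at 1000 nM, for instance, ran from -0.31 to 0.14. PMEPA1 222450_at turned to -0.012 at 1000 nM and -0.18 at 100 nM against the mean of 0.1 to 10 nM. With the covariate the trend turned to -0.038 for SKIL 217591_at and -0.030 for TGFBR1 236561_at. The causes were not tested. Probe sets near the level minimum were not shown to be above background, which limits the dim members.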
